A study of Mus musculus with 48 samples.

Results

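ATF4 is a transcription factor through which cells answer a shortage of amino acids, a failing mitochondrion or unfolded protein, and the 10 genes described here are its own gene and 9 genes known as its targets or partners: Asns, Psat1, Phgdh, Psph, Mthfd2, Trib3, Ddit3, Atf4, Chac1 and Fgf21. They were taken by gene symbol, 10 of the 40847 genes in the count tables of a mouse liver study of perfluorooctanesulfonate (PFOS), a persistent fluorinated surfactant. The set was chosen with their levels by PFOS dose already known, so those levels are given as a description without a test. Tests are given only for differences between genotypes and between sexes, and for other genes of the pathway.

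Livers came from 48 mice in 12 groups of 4, females and males of 2 genotypes gavaged with PFOS in water and 0.5% Tween 20 at daily doses of 0 mg/kg (0-PFOS), 1 mg/kg (1-PFOS) or 10 mg/kg (10-PFOS) for 21 days. The mice were 10 to 12 weeks old when given PFOS and ate a normal diet with 18% of its energy as fat. The Cyp2b-null line was made on a C57Bl/6J background. The hCYP2B6-Tg line came from breeding it with transgenic mice whose strain the paper does not give. Every mouse, controls included, lacked the mouse genes Cyp2b9, Cyp2b10 and Cyp2b13, which had been removed with Crispr/Cas9. Cyp2b-null mice carried that deletion alone, and hCYP2B6-Tg mice carried in addition a transgene with human CYP2B6, CYP2A13 and CYP2F1, so that neither genotype has the Cyp2b genes of a wild-type mouse liver and neither group of 0-PFOS mice is wild type. Each library was made from messenger RNA of 1 liver and held 44416597 to 82615862 counts (median 58388796). Levels are given in CPM, counts relative to the size of the library and scaled for its composition, and are compared between mice for 1 gene but not between genes, since they are not divided by gene length. As bulk tissue was sequenced, fewer cells of a type and less RNA per cell cannot be told apart.

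In each library the median correlation of log2 CPM with the other 3 of its group was between 0.965 and 0.986. Among the hCYP2B6-Tg females at 10-PFOS, replicate 2 stood apart in Lcn2, an acute-phase gene, with 182 CPM against 5.74 to 9.36 in the other 3 and at most 19.9 in the other 44 libraries; values that rest on this mouse are given with and without it. The 4 hepatocyte markers measured were called lower at 10-PFOS in all 4 comparisons with 0-PFOS, and their summed level was 70822 to 97752 CPM over the 16 untreated mice and 29800 to 46308 CPM over the 16 mice at 10-PFOS. They came from a list of 5 plasma protein genes (Alb, Apoa1, Ttr, Tf and Serpina1a). Less of these mRNAs per hepatocyte and fewer hepatocytes cannot be told apart. Kupffer cell markers were called lower for 5, 5, 3 and 2 of 5 (1 and 0 in the males with library totals as scaling), with summed levels of 76.2 to 335 CPM in untreated mice and 64.4 to 160 CPM at 10-PFOS. Within a sex and genotype these sums overlapped only in Cyp2b-null males. Untreated and at 10-PFOS they were 238 to 292 and 81.4 to 131 CPM in Cyp2b-null females and 231 to 335 and 101 to 160 CPM in hCYP2B6-Tg females. In hCYP2B6-Tg males they were 110 to 166 and 72.3 to 95.7 CPM. Pooled over sexes and genotypes, summed markers of stellate cells (88.5 to 215 and 88.3 to 142 CPM), endothelial cells (82.6 to 158 and 82.1 to 143 CPM) and cholangiocytes (14.4 to 38.8 and 10.7 to 26.3 CPM) overlapped between untreated and 10-PFOS mice. So did those of lymphocytes (1.18 to 4.11 and 0.449 to 2.33 CPM) and neutrophils (0.529 to 1.92 and 0.884 to 2.75 CPM). Within a sex and genotype the stellate sums were separate in females, at 152 to 214 and 101 to 128 CPM in Cyp2b-null and 152 to 215 and 133 to 142 CPM in hCYP2B6-Tg mice. Cholangiocyte sums were separate in hCYP2B6-Tg females (23.2 to 38.8 and 15.1 to 22.8 CPM), and the remaining sums of these cell types overlapped. Of 5 stellate markers 3, 2, 1 and 0 were called lower and 0, 0, 1 and 2 higher, and of 5 endothelial markers 1, 2, 1 and 1 lower and 1 higher in each comparison. Of the 3, 3, 2 and 2 cholangiocyte markers tested, 0, 1, 1 and 0 were called lower and 1, 1, 0 and 0 higher, and none of the few lymphocyte and acinar markers tested was called. The neutrophil markers Ly6g and Mpo and the pancreatic acinar markers Prss2, Cpa1, Pnlip and Ctrb1 had means below 0.1 CPM, and summed acinar markers were at 24.9 to 44.0 CPM in untreated mice and 17.6 to 44.2 CPM at 10-PFOS. The part of these marker shifts in the results was not tested.

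When amino acids run short, when unfolded protein builds up in the endoplasmic reticulum (ER) or when mitochondria fail, kinases phosphorylate the translation factor eIF2. General translation then slows while the mRNA of ATF4 is translated more, so that the ATF4 protein can increase without more of its mRNA. ATF4 dimerises with C/EBP proteins and other partners and binds C/EBP-ATF elements in genes for amino acid synthesis and import, tRNA charging and stress control. In the liver the pathway is known for its link to diet and drugs, and it is one of the inputs to the hormone FGF21, which is also a target of the fatty acid receptor PPARα.

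The promoters of 5 of the genes are shown because they carry letters of that element: an upstream window is where ATF4 is known to bind these genes in mammals. Each window runs from 250 bases before to 50 bases after the annotated start in RefSeq (build GRCm38.p6, not the GRCm39 build of the counts), 5′ to 3′ on the gene's own strand, and the capitals mark a match to TGATGNAA or TGNNGNAAT on either strand. The windows are Asns at chr6:7693160-7693459 (minus strand), the first of a pair listed for Psat1 at chr19:15925010-15925309 (minus strand), Chac1 at chr2:119350992-119351291 (plus strand), Trib3 at chr2:152344011-152344310 (minus strand) and Fgf21 at chr7:45615441-45615740 (minus strand).
Asns: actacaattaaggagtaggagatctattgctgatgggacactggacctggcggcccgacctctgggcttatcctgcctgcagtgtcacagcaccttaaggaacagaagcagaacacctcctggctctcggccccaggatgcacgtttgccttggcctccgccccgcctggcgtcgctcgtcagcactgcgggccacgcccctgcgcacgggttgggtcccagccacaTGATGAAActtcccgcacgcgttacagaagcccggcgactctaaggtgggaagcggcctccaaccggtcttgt
Psat1: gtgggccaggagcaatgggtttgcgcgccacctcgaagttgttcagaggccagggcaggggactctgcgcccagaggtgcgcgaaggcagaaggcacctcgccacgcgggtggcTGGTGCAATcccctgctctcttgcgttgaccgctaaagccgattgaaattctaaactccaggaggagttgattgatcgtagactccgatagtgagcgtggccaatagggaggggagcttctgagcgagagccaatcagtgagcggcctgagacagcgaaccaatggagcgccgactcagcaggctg
Chac1: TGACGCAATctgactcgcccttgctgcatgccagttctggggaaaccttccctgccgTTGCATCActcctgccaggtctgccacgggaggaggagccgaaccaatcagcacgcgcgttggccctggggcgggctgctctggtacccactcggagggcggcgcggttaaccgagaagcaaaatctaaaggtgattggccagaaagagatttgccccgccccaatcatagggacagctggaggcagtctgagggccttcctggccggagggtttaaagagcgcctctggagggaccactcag
Trib3: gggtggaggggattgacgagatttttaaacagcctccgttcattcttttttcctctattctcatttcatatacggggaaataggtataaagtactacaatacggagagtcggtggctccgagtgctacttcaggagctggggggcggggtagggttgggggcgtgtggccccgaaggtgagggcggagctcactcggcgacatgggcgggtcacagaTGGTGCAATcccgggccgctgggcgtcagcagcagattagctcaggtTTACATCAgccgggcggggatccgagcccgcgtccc
Fgf21: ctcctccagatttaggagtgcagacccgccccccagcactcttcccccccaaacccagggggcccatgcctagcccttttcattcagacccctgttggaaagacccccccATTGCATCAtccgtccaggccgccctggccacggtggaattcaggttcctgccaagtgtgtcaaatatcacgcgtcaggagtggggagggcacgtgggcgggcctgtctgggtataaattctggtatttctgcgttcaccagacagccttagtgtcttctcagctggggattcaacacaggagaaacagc

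All 10 genes had a window in RefSeq. TGATGNAA was found for 4 of them, with its first base counted from the start site at -23 in Asns on the gene's strand, and on the other strand at -193 in Chac1, at -139 in Fgf21 and at 15 in Trib3. Of all 32851 promoter windows of this length, 3.97% held it. The wider TGNNGNAAT, chosen after these promoters had been read, was found for Psat1 (-136), Chac1 (-250), Trib3 (-33) and Fgf21 (-140, on the other strand and overlapping its other match), and in 11.5% of all windows. TGACGTCA, the cyclic AMP response element, was in none of the 10 genes and in 1.79% of all windows. These matches are a description of letters in a window, not of binding.

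Asns makes asparagine from aspartate and glutamine. In untreated females it was close to the floor of detection, at 0.216, 0.184, 0 and 0.118 CPM in the Cyp2b-null mice and 0.0367, 0.0601, 0.182 and 0.147 CPM in the hCYP2B6-Tg mice; the 0 counts of replicate 3 allow up to 0.0875 CPM (3 steps of 2 counts, as all counts of Asns were even; counting error only). At 10-PFOS the same measurement gave 16.7, 9.92, 11.7 and 3.17 CPM in Cyp2b-null females and 11.7, 15.1, 8.58 and 6.65 CPM in hCYP2B6-Tg females. Every 10-PFOS female was thus above every untreated female, and the lowest of them, a Cyp2b-null mouse, lay well above the highest untreated one. At 1-PFOS the values were 0.212, 0.536, 0.0922 and 0.0805 CPM in Cyp2b-null and 0.584, 0.593, 0.402 and 0.150 CPM in hCYP2B6-Tg females, overlapping those of untreated mice of the same genotype.

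Untreated males had more Asns, 1.20, 1.83, 1.27 and 0.848 CPM in the Cyp2b-null and 0.444, 2.15, 0.434 and 0.226 CPM in the hCYP2B6-Tg mice. At 10-PFOS the males were at 27.4, 20.1, 19.1 and 14.5 CPM and 10.7, 17.3, 15.2 and 19.6 CPM, again above every untreated mouse of their genotype. At 1-PFOS they were at 3.67, 3.66, 3.30 and 1.09 CPM and 2.37, 2.08, 0.194 and 5.56 CPM, where 3 of the 4 Cyp2b-null males exceeded all their untreated counterparts and the hCYP2B6-Tg males ranged from below to above theirs. As fitted log2 fold changes with their standard errors, the differences of 10-PFOS from 0-PFOS were 6.33 ± 0.66 and 6.59 ± 0.68 in Cyp2b-null and hCYP2B6-Tg females and 3.96 ± 0.60 and 4.20 ± 0.62 in the males, the last becoming 5.35 without replicate 2 of the untreated hCYP2B6-Tg males. In females these folds divide by a few counts and their size depends on them.

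**Figure D1:**
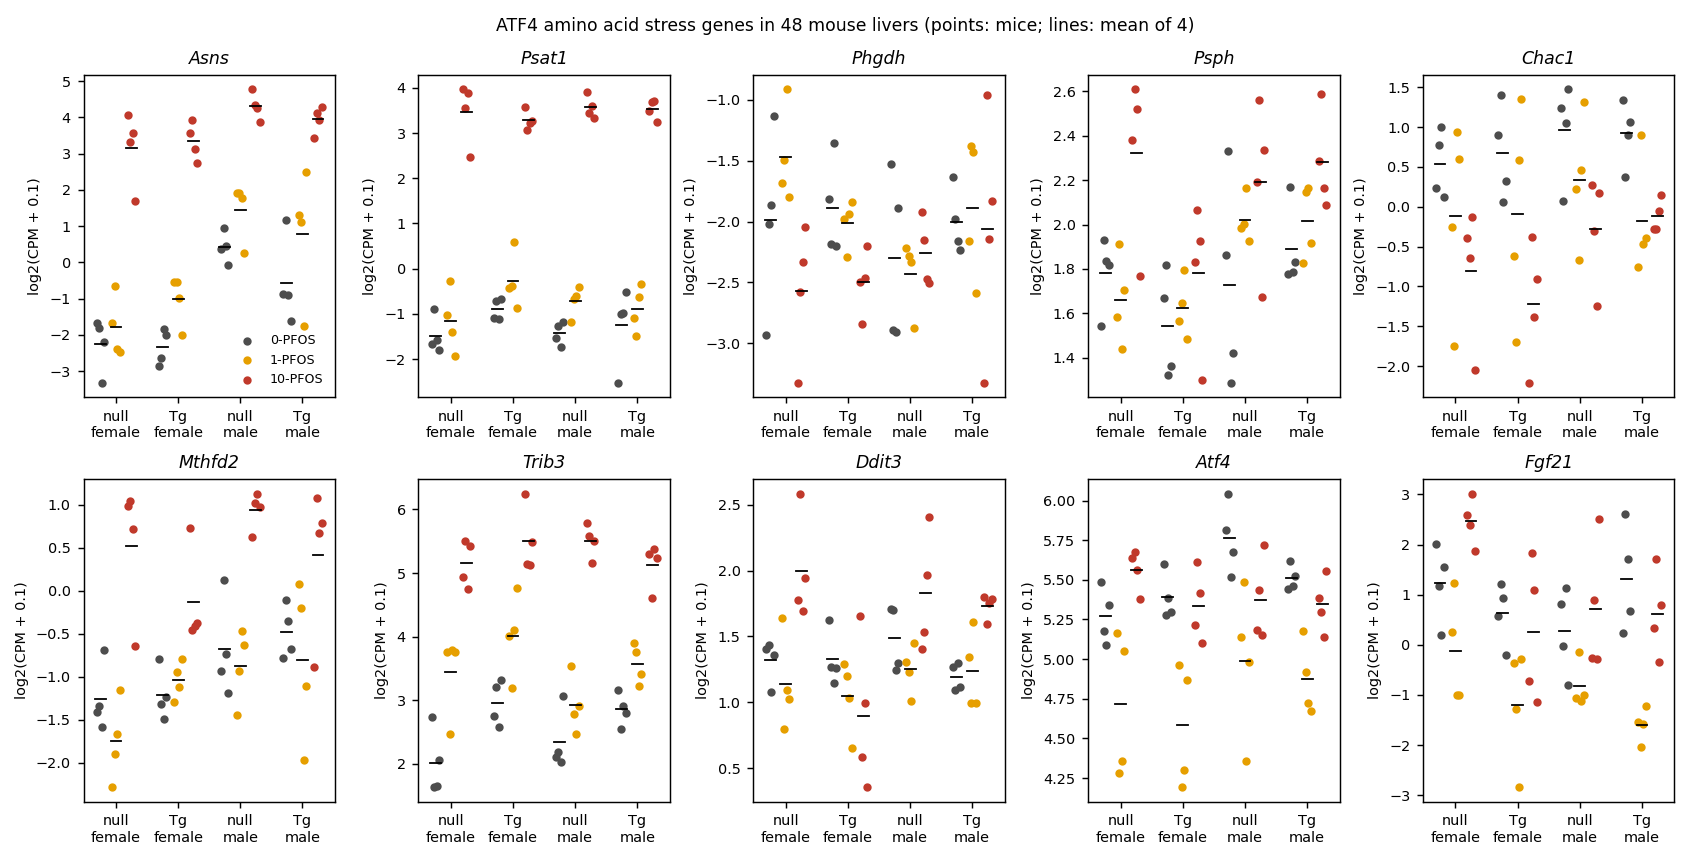
CPM of each of the 10 genes (vertical axes, CPM on a log scale after adding 0.1) in each of the 48 livers, by group; points are mice and lines are means of 4. Asns and Psat1 at 10-PFOS lie above every untreated mouse of their sex and genotype, Asns starts lower in untreated females than in males, and Phgdh stays at or below 0.430 CPM.

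Psat1, Phgdh and Psph catalyse the 3 steps from a glycolytic intermediate to serine, and they did not share a pattern. Psat1, the middle step, was at 0.216, 0.441, 0.233 and 0.189 CPM in untreated Cyp2b-null females and 15.6, 11.7, 14.7 and 5.42 CPM at 10-PFOS. In hCYP2B6-Tg females it was at 0.367, 0.511, 0.364 and 0.529 CPM and 11.9, 8.26, 9.20 and 9.48 CPM. Treated and untreated mice did not overlap. The males gave 0.248, 0.317, 0.201 and 0.339 CPM untreated and 14.9, 10.8, 12.1 and 9.98 CPM at 10-PFOS in the Cyp2b-null genotype, and 0.0740, 0.400, 0.403 and 0.602 CPM and 11.2, 12.8, 12.9 and 9.37 CPM in the hCYP2B6-Tg genotype. The 16 mice at 10-PFOS thus spanned 5.42 to 15.6 CPM and the 16 untreated mice 0.0740 to 0.602 CPM. Counts of Psat1 went down to 4 in a library, so the size of its folds depends on few counts. Fitted log2 fold changes were 5.47 ± 0.43, 4.43 ± 0.40, 5.41 ± 0.35 and 4.92 ± 0.33 with the females first, Cyp2b-null before hCYP2B6-Tg, and then the males likewise, the order used for groups of 4 values below. At 1-PFOS Psat1 was at 0.161 to 1.41 CPM in females and 0.257 to 0.695 CPM in males, and did not overlap with untreated mice only in Cyp2b-null males.

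Phgdh, the first step, was nearly absent: its counts ran from 0 to 30 over the 48 libraries, its highest level was 0.430 CPM, and it did not pass the filter on low counts in any fit. In replicate 1 of the Cyp2b-null females at 10-PFOS and of the hCYP2B6-Tg males at 10-PFOS no count was found, which allows up to 0.117 and 0.121 CPM (3 steps of 2 counts, as all its counts were even). Psph, the last step, was detected in every mouse and varied little, with means of 3.35 ± 0.384, 2.84 ± 0.492, 3.35 ± 1.18 and 3.63 ± 0.513 CPM (SD, n = 4) untreated. At 10-PFOS they were 5.02 ± 1.19, 3.40 ± 0.743, 4.58 ± 1.13 and 4.80 ± 0.781 CPM. Treated and untreated mice overlapped in all 4 comparisons, with log2 fold changes of 0.57 ± 0.19, 0.25 ± 0.19, 0.43 ± 0.20 and 0.37 ± 0.20. Exons of Psph overlap those of Cct6a on the opposite strand in the gene annotation, and the sources used here do not say whether counting used strand.

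Mthfd2, a mitochondrial enzyme of the folate cycle into which serine carbon passes, was low in all groups and higher at 10-PFOS. Cyp2b-null females were at 0.278, 0.294, 0.233 and 0.520 CPM untreated and 1.87, 1.96, 1.54 and 0.542 CPM at 10-PFOS. The hCYP2B6-Tg females were at 0.477, 0.300, 0.255 and 0.324 CPM and 1.55, 0.629, 0.651 and 0.669 CPM, where replicate 1 lay far above the other 3. In Cyp2b-null males Mthfd2 was at 0.425, 0.988, 0.502 and 0.339 CPM and 1.44, 1.92, 2.09 and 1.87 CPM. These 3 comparisons had no overlap between dose groups. In hCYP2B6-Tg males, at 0.481, 0.830, 0.682 and 0.527 CPM and 0.442, 2.00, 1.49 and 1.62 CPM, replicate 1 of the treated mice lay below every untreated one. Log2 fold changes were 2.12 ± 0.42, 1.36 ± 0.42, 1.68 ± 0.44 and 1.10 ± 0.43, and at 1-PFOS they were -0.66 ± 0.44, 0.20 ± 0.43, -0.28 ± 0.46 and -0.15 ± 0.45.

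Atf4 itself, whose protein is set largely through translation, had no common direction at 10-PFOS. Untreated mice were at 44.6, 36.0, 34.0 and 40.5 CPM (Cyp2b-null females), 48.5, 38.7, 41.6 and 39.2 CPM (transgenic females), 56.1, 65.9, 45.6 and 51.1 CPM (Cyp2b-null males) and 43.4, 49.1, 43.9 and 46.0 CPM (hCYP2B6-Tg males). At 10-PFOS, in the same order, they were at 49.7, 51.1, 47.1 and 41.6 CPM, 37.1, 48.8, 42.6 and 34.3 CPM, 36.2, 43.3, 35.5 and 52.6 CPM and 41.6, 39.2, 35.2 and 46.9 CPM. The dose groups overlapped in all 4, with log2 fold changes of 0.28 ± 0.19, -0.06 ± 0.19, -0.40 ± 0.17 and -0.20 ± 0.17, the last of which was 0.12 with library totals as the only scaling. The lower dose differed: at 1-PFOS the values were 35.8, 19.3, 20.4 and 33.1 CPM in Cyp2b-null females and 31.1, 18.2, 19.6 and 29.1 CPM in hCYP2B6-Tg females. In the males they were 35.1, 44.7, 20.4 and 31.4 CPM and 36.2, 30.1, 26.4 and 25.5 CPM. Every 1-PFOS mouse was below every untreated mouse of its group except in Cyp2b-null females, where replicate 1 of the treated mice, at 35.8 CPM, passed the lowest untreated mouse, and the fitted differences were -0.52 ± 0.19, -0.79 ± 0.19, -0.73 ± 0.17 and -0.63 ± 0.17. In each of the 4 the mean was lowest at 1-PFOS.

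Trib3, a pseudokinase that is made late in the response and restrains ATF4 and AKT, was already present without PFOS and graded with dose. In Cyp2b-null females it was at 6.58, 3.01, 3.03 and 4.07 CPM at 0-PFOS, 13.5, 5.45, 13.8 and 13.4 CPM at 1-PFOS and 30.5, 45.4, 26.8 and 42.8 CPM at 10-PFOS. In hCYP2B6-Tg females the same doses gave 6.67, 9.13, 5.86 and 9.88 CPM, 16.0, 9.03, 17.2 and 27.0 CPM and 76.1, 35.4, 34.9 and 44.9 CPM. In both, 10-PFOS mice lay above all others, and each 1-PFOS group overlapped with untreated mice through replicate 2, its lowest. The males gave 4.21, 4.44, 3.98 and 8.28, then 11.5, 6.79, 5.43 and 7.40 and then 55.2, 48.1, 35.7 and 45.3 CPM in the Cyp2b-null genotype. In hCYP2B6-Tg males they were 8.88, 5.78, 7.41 and 6.85 CPM, 14.8, 13.4, 9.28 and 10.6 CPM and 39.2, 24.3, 41.3 and 37.7 CPM, where no dose group overlapped with another. Log2 fold changes against 0-PFOS were 1.45 ± 0.34, 1.12 ± 0.33, 0.57 ± 0.24 and 0.74 ± 0.24 at 1-PFOS and 3.11 ± 0.36, 2.59 ± 0.35, 3.12 ± 0.25 and 2.27 ± 0.24 at 10-PFOS.

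Ddit3 encodes CHOP, a partner of ATF4 linked to cell death under prolonged stress, and its differences were small and not of 1 sign. Untreated mice of all 4 kinds lay between 2.01 and 3.17 CPM. At 10-PFOS Cyp2b-null females were at 3.32, 5.90, 3.13 and 3.75 CPM and hCYP2B6-Tg females at 3.05, 1.40, 1.89 and 1.18 CPM, so that the first lay above all their controls and 3 of the second lay below all of theirs. Males at 10-PFOS were at 2.54, 2.79, 3.81 and 5.20 CPM (Cyp2b-null, overlapping their controls) and 3.38, 2.92, 3.28 and 3.35 CPM (hCYP2B6-Tg, above theirs). Log2 fold changes were 0.73 ± 0.26, -0.38 ± 0.27, 0.37 ± 0.20 and 0.53 ± 0.20, and at 1-PFOS -0.18 ± 0.26, -0.30 ± 0.27, -0.26 ± 0.20 and 0.06 ± 0.21. Exons of Ddit3 overlap those of Mars and Gm4189 on the opposite strand, and 56.3% of its counts were even numbers where the other members had even counts only. Mars, listed below as the synthetase Mars1, was called higher at 10-PFOS in all comparisons but that of hCYP2B6-Tg males. Whether counting used strand is not given, and the part of Mars1 reads in the Ddit3 results was not tested.

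Chac1, which degrades glutathione and is a known target of ATF4 and CHOP, was lower rather than higher at 10-PFOS. In Cyp2b-null females it was at 1.08, 1.62, 1.90 and 0.993 CPM untreated and 0.664, 0.540, 0.819 and 0.143 CPM at 10-PFOS, and in hCYP2B6-Tg females at 1.76, 2.55, 0.946 and 1.15 CPM and 0.117, 0.669, 0.285 and 0.433 CPM. Treated females were below all their controls in both genotypes. In hCYP2B6-Tg males it was at 2.44, 1.20, 1.77 and 1.99 CPM and 0.724, 0.726, 0.861 and 1.01 CPM, also without overlap. In Cyp2b-null males the values were 2.26, 0.952, 1.97 and 2.68 CPM and 1.11, 0.709, 0.321 and 1.03 CPM, where 1 untreated mouse fell among the treated ones. Log2 fold changes were -1.38 ± 0.65, -2.10 ± 0.67, -1.33 ± 0.44 and -1.18 ± 0.44 at 10-PFOS and -0.43 ± 0.62, -0.48 ± 0.62, -0.58 ± 0.43 and -1.04 ± 0.43 at 1-PFOS.

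Fgf21 encodes a liver hormone released in fasting and under stress. Its spread within groups was wide: untreated mice had 3.92, 2.17, 1.05 and 2.81 CPM (Cyp2b-null females), 1.39, 2.22, 1.82 and 0.765 CPM (hCYP2B6-Tg females), 1.66, 0.882, 2.11 and 0.475 CPM (Cyp2b-null males) and 1.07, 5.97, 3.19 and 1.51 CPM (hCYP2B6-Tg males). At 1-PFOS it was at 1.09, 2.26, 0.400 and 0.402 CPM and 0.676, 0.314, 0.0402 and 0.719 CPM in the females and 0.382, 0.809, 0.360 and 0.399 CPM and 0.246, 0.143, 0.233 and 0.331 CPM in the males. In both hCYP2B6-Tg groups every 1-PFOS mouse was below every untreated one, and the log2 fold changes were -1.27 ± 0.64, -1.79 ± 0.69, -1.40 ± 0.65 and -3.63 ± 0.70. At 10-PFOS the females had 5.90, 5.16, 7.99 and 3.57 CPM and 0.505, 3.46, 2.03 and 0.354 CPM, and the males 0.738, 1.75, 0.723 and 5.56 CPM and 1.17, 3.18, 0.684 and 1.62 CPM. All 4 groups at 10-PFOS overlapped with their controls, and the differences of 1.17 ± 0.62, 0.02 ± 0.64, 0.76 ± 0.61 and -0.86 ± 0.60 took both signs. That of Cyp2b-null males became -0.28 without replicate 4 at 10-PFOS, and that of hCYP2B6-Tg females -0.70 without replicate 2, the mouse with high Lcn2.

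Counted over all 10 genes, at 10-PFOS 5 lay wholly above the controls in Cyp2b-null females (Asns, Psat1, Mthfd2, Trib3 and Ddit3) and 1 wholly below (Chac1), where 19.7% of all 13193 genes tested in females were wholly above and 18.1% wholly below. In hCYP2B6-Tg females 4 lay above (Asns, Psat1, Mthfd2 and Trib3; 21.3% of all genes) and Chac1 below (20.3%). In Cyp2b-null males the same 4 lay above (20.7% of the 12594 genes tested in males) and none below (18.1%), and in hCYP2B6-Tg males 4 lay above (Asns, Psat1, Trib3 and Ddit3; 24.9%) and Chac1 below (20.4%). At 1-PFOS no gene was clear of its controls in Cyp2b-null females (6.09% of all genes above and 4.24% below), and Atf4 and Fgf21 were below in hCYP2B6-Tg females (3.78%, and 4% above). In Cyp2b-null males Psat1 was above (4.76%) and Atf4 below (3.69%), and in hCYP2B6-Tg males Trib3 was above (11.1%) and Atf4 and Fgf21 below (8.64%). As the genes were chosen with these comparisons known, their counts are not read against the shares of all genes. Without replicate 2 of the 10-PFOS hCYP2B6-Tg females, the mouse with high Lcn2, the log2 fold changes of that group were 6.36 for Asns, 4.50 for Psat1, 1.49 for Mthfd2, 2.71 for Trib3, 0.15 for Psph, -0.16 for Atf4, -0.26 for Ddit3, -0.70 for Fgf21 and -2.53 for Chac1.

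**Figure D2:**
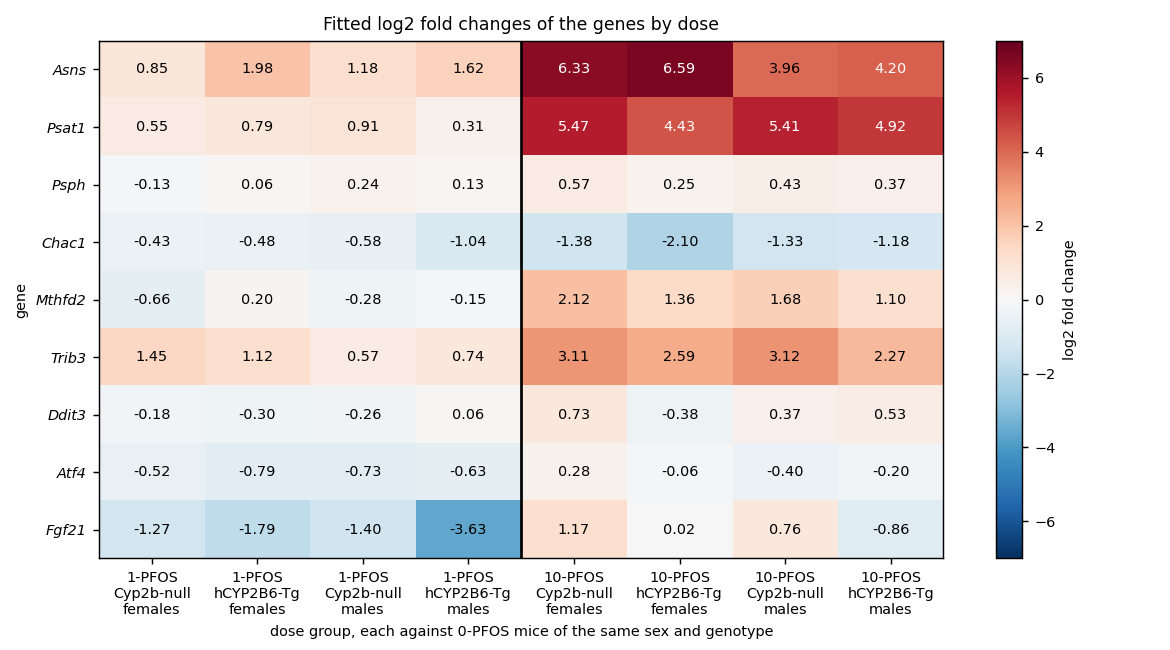
Fitted log2 fold changes of the 9 genes that passed the filter (rows) at 1-PFOS (left 4 columns) and 10-PFOS (right 4 columns) against 0-PFOS mice of the same sex and genotype; red is higher and blue lower with PFOS. Asns runs from 3.96 to 6.59 at 10-PFOS, Chac1 is negative in all 8 columns, and Atf4 and Fgf21 are more negative at 1-PFOS than at 10-PFOS in every sex and genotype.

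The comparison of genotypes at equal dose did not enter the choice of genes and was tested by edgeR's quasi-likelihood test, with p adjusted over all genes. In 10-PFOS females 1 of the 9 genes tested was called, Ddit3, which the hCYP2B6-Tg mice had less of than the Cyp2b-null mice, by a log2 difference of -1.10 ± 0.27 (SE; adjusted p = 0.026 in edgeR, n = 4 and 4), where 3.59% of all genes were called. Of the 4 transgenic mice, 4 were below all Cyp2b-null mice. The call was lost with only these 2 groups in the fit (adjusted p = 0.13 in edgeR), without Cyp2b-null replicates 1, 2 or 3 (0.055, 0.10 and 0.054) and without hCYP2B6-Tg replicates 2 or 3 (0.11 and 0.066), replicate 2 being the mouse with high Lcn2. Next came Fgf21 (log2 difference -1.83 ± 0.64, adjusted p = 0.11) and Psph (-0.56 ± 0.19, adjusted p = 0.10 in edgeR), which did not pass.

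In the other genotype comparisons none of the 9 genes was called by edgeR or by DESeq2. In untreated females, 1-PFOS females and untreated males 0 of all genes were called by edgeR (1, 1 and 0 of the 9 at an unadjusted p under 0.05). At 1-PFOS and 10-PFOS in males 0.889% and 0.0556% of all genes were called and 0 of the 9 (1 and 0 at an unadjusted p under 0.05). The interaction of genotype with 10-PFOS, which asks whether the response to the high dose differed between genotypes, called 0 of all genes in either sex, and 1 of the 9 in each was under an unadjusted p of 0.05. It is made of the dose changes known when the 9 genes were chosen, so for them it is a description and not an independent test. The log2 interaction estimates over the 9 genes lay between -1.15 and 0.26 in females and between -1.62 and 0.25 in males. This design gives wide errors for genes of few counts, and a missed threshold does not show that the genotypes responded alike.

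Between the sexes, Asns differed before any treatment. It was lower in untreated females than in untreated males by -3.33 ± 0.76 log2 in Cyp2b-null mice (adjusted p = 0.0023 in edgeR, 12.8% of all genes called) and by -2.94 ± 0.81 log2 in hCYP2B6-Tg mice (adjusted p = 0.0080 in edgeR, 21.8% called). All 8 untreated females were at or below 0.216 CPM and all 8 males at or above 0.226 CPM. The first call held in every alternative fit, and the second was lost without replicate 2 of the untreated hCYP2B6-Tg males (-1.80, adjusted p = 0.15 in edgeR), whose 2.15 CPM compare with 0.226 to 0.444 CPM in the other 3. The other 8 genes tested were not called in untreated mice of either genotype. Females and males were deposited in separate count tables, so sex and any difference in how the tables were made cannot be told apart.

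At 10-PFOS the sexes were closer in Asns, with log2 differences of -0.97 and -0.58 that were not called. None of the 9 genes was called in Cyp2b-null mice at that dose (0.942% of all genes; 1 of the 9 at an unadjusted p under 0.05 in edgeR, none by DESeq2). In hCYP2B6-Tg mice Ddit3 was lower in females by -0.78 ± 0.24 (adjusted p = 0.035 in edgeR, 7.47% of all genes called), a call lost with every gene in the fit (adjusted p = 0.073), with only the compared groups (0.11), with library totals as scaling (0.081) and without 6 of the 8 mice in turn: female replicates 2, 3 or 4 (0.13, 0.071 and 0.12) and male replicates 1, 3 or 4 (0.066, 0.068 and 0.086). The interaction of sex with 10-PFOS was not called for any of the 9 in either genotype (0.949% and 6.5% of all genes called, and 2 and 2 of the 9 at an unadjusted p under 0.05). This interaction too is made of dose changes known when the genes were chosen, and is a description for them. For Asns it was estimated at 2.36 log2 in Cyp2b-null and 2.35 log2 in hCYP2B6-Tg mice, the fold being larger in females. As the gene was chosen on its dose changes, this cannot decide whether its response differs between the sexes.

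**Figure D3:**
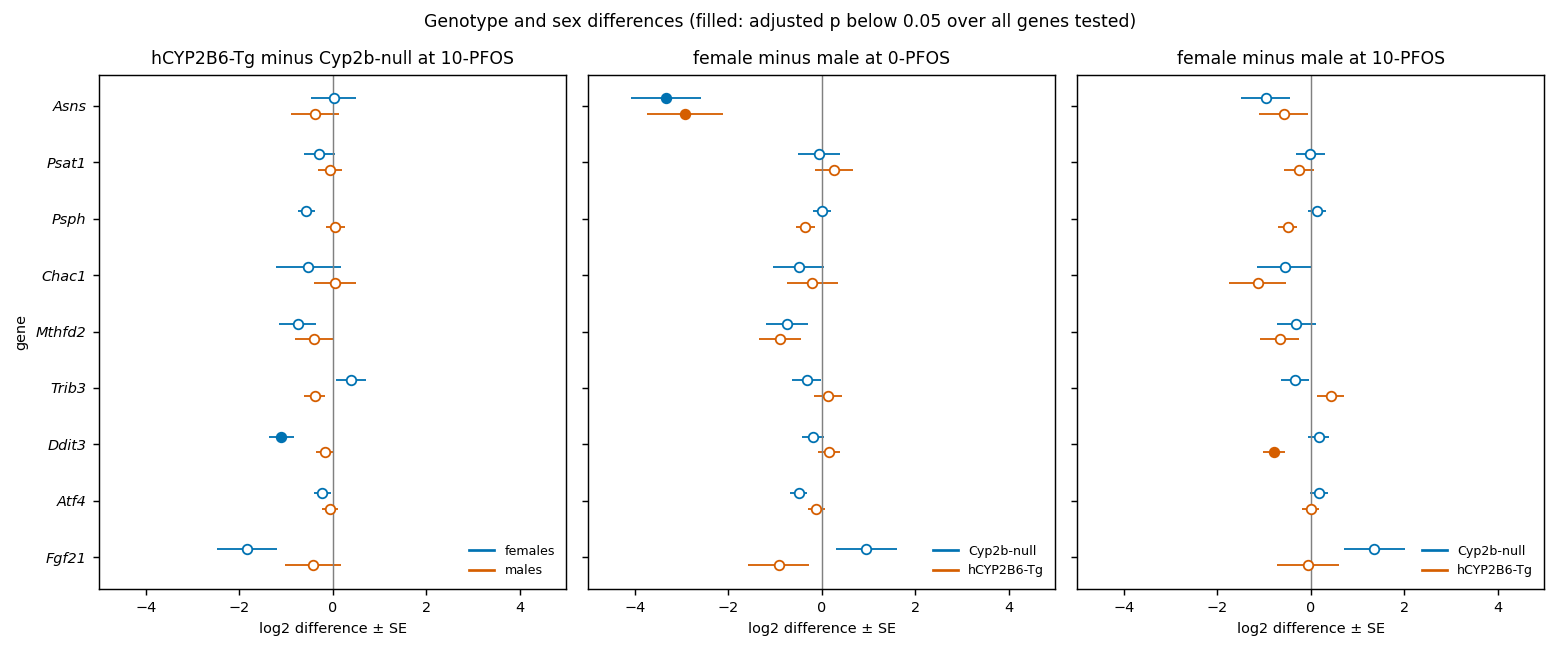
Log2 differences (horizontal axes, bars are SE) of the 9 genes tested between genotypes at 10-PFOS (left), between the sexes in untreated mice (middle) and between the sexes at 10-PFOS (right); filled points have an adjusted p below 0.05 over all genes tested. The filled points are Asns in both genotypes of untreated mice and Ddit3 in 10-PFOS females by genotype and in hCYP2B6-Tg mice at 10-PFOS by sex.

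Mice of 1 group also differ among themselves, and 36 pairs of the 9 genes were compared over the 48 livers after removing group means, with permutations within groups. None of the 36 correlations had an adjusted p below 0.05. The lowest p was that of Atf4 with Fgf21 (Pearson r = 0.41, permutation p = 0.017, adjusted 0.28; Spearman rho = 0.44, adjusted permutation p = 0.18), and r was 0.40 without the 2 livers farthest from the median of Atf4. The genes share the depth of a library, and no pair is described further.

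The rest of the pathway, together with targets of PPARα, was read from 10 lists with 118 genes. They were tested in the same dose comparisons by edgeR and are given as numbers called. Beside them stand the 36.9%, 46.8%, 44.1% and 48% of all genes called at 10-PFOS in either direction. Called higher were 2522 and 2945 of 13193 genes in females and 2828 and 3038 of 12594 in males. The lists were drawn up with earlier results of these data known, and their counts are a description of the lists. At 1-PFOS 4 of 112, 12 of 112, 11 of 110 and 32 of 110 listed genes were called, where 0.697%, 2.27%, 3.62% and 14.7% of all genes were called. Of these listed genes, 4, 6, 6 and 7 were PPARα targets called higher, and in hCYP2B6-Tg males the PPARα target Pdk4 was called lower. In Cyp2b-null females no gene of any other list was called at 1-PFOS. Among stress regulators downstream of ATF4 none was called higher at 1-PFOS. Atf5 and Cebpg were called lower in Cyp2b-null males, and Atf5, Cebpg and Ppp1r15a in hCYP2B6-Tg males. The Cebpg call in Cyp2b-null males was lost with library totals as scaling (adjusted p = 0.11 in edgeR). In hCYP2B6-Tg males 3 synthetases were called higher (Dars, Farsb and Lars) and 3 lower (Cars, Sars and Tars). The 12 of hCYP2B6-Tg females became 7 without 0-PFOS replicates 1 or 3 or 1-PFOS replicate 3. At 10-PFOS 68, 68, 73 and 82 were called.

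The aminoacyl-tRNA synthetases of the cytosol, which load amino acids onto tRNA, rose together at 10-PFOS: 16 of 20 in both female comparisons, 15 among Cyp2b-null and 14 among hCYP2B6-Tg males, with Tars, for threonine, called lower in the males (in Cyp2b-null males not with library totals as scaling). Their median log2 fold changes were 0.56, 0.46, 0.51 and 0.51, where the median of all genes was between -0.05 and -0.01. Gars rose by 1.08 ± 0.10, 0.83 ± 0.10, 1.18 ± 0.09 and 1.17 ± 0.09 (log2 ± SE; largest adjusted p = 6.4e-07 in edgeR), from 24.5 ± 1.38 to 52.1 ± 7.58 CPM in Cyp2b-null females (SD, n = 4). Lars rose by 0.94 ± 0.15, 1.16 ± 0.15, 0.87 ± 0.12 and 0.98 ± 0.12 (largest adjusted p = 4e-05), Iars by 0.91 ± 0.14, 0.95 ± 0.14, 0.89 ± 0.13 and 0.67 ± 0.13 (0.00015) and Sars by 1.02 ± 0.12, 0.77 ± 0.12, 0.81 ± 0.07 and 0.69 ± 0.07 (1.5e-05 in edgeR).

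Of the amino acid transporters, 5 of 9, 3 of 9, 5 of 8 and 4 of 8 rose and 1, Slc38a2, a carrier of neutral amino acids, fell in each comparison (in Cyp2b-null females not without 0-PFOS replicates 2 or 3, adjusted p = 0.070 and 0.10 in edgeR, or 10-PFOS replicates 2 or 4, 0.062 and 0.056). Slc3a2, the heavy chain shared by several exchangers, rose by 0.81 ± 0.16, 1.08 ± 0.16, 1.20 ± 0.10 and 1.16 ± 0.10 (largest adjusted p = 0.00032 in edgeR), and the glycine transporter Slc6a9 by 1.12 ± 0.21, 1.79 ± 0.21, 1.02 ± 0.19 and 0.97 ± 0.19 (0.00019). The cystine exchanger Slc7a11 rose in 3 comparisons (1.05 ± 0.22, 0.92 ± 0.18 and 0.93 ± 0.18) and was at 0.53 ± 0.22 in hCYP2B6-Tg females (adjusted p = 0.054 in edgeR). The arginine carrier Slc7a1 was called in Cyp2b-null females and males (0.99 ± 0.30 and 1.86 ± 0.41), and in hCYP2B6-Tg females at 0.78 ± 0.30 (adjusted p = 0.038 in edgeR), a call lost without 0-PFOS replicates 2, 3 or 4 (0.086, 0.095 and 0.080) or 10-PFOS replicates 1, 2 or 4 (0.064, 0.083 and 0.066). It was not called in hCYP2B6-Tg males (0.53 ± 0.38, adjusted p = 0.26 in edgeR).

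Enzymes of amino acid and folate metabolism went both ways, 2, 3, 3 and 3 higher and 4, 3, 3 and 2 lower of 10, 10, 9 and 9 tested. Mthfd1l, the mitochondrial partner of Mthfd2 in the folate cycle, rose by 2.99 ± 0.59, 1.93 ± 0.56, 2.93 ± 0.50 and 3.31 ± 0.52 (largest adjusted p = 0.0069 in edgeR, that of hCYP2B6-Tg females, and 0.059 there without replicate 2 at 10-PFOS). Gpt2, a mitochondrial alanine transaminase, rose by 1.06 ± 0.24, 1.53 ± 0.24, 1.11 ± 0.16 and 1.32 ± 0.16 (largest adjusted p = 0.0012). Got1, the cytosolic aspartate transaminase, changed by -2.86 ± 0.35, -2.11 ± 0.34, -2.12 ± 0.22 and -2.50 ± 0.22 (2.6e-05) and Cbs, which condenses serine with homocysteine, by -1.26 ± 0.13, -1.12 ± 0.13, -1.13 ± 0.09 and -1.53 ± 0.09 (4.6e-07 in edgeR), both lower. Among 6 genes that break down serine, glycine and asparagine, Asrgl1 and Gldc rose and Agxt, a glyoxylate aminotransferase, fell in all 4 comparisons, and Aspg, another asparaginase, fell in males, where with library totals as scaling no gene of the list was called lower. Asrgl1, an asparaginase, rose by 1.11 ± 0.13, 1.33 ± 0.13, 1.35 ± 0.14 and 1.94 ± 0.14 (largest adjusted p = 4.9e-07) and Gldc, of the glycine cleavage system, by 0.55 ± 0.17, 1.69 ± 0.17, 1.03 ± 0.10 and 0.84 ± 0.09 (0.014 in edgeR, that of Cyp2b-null females, and 0.050 there without 0-PFOS replicate 4 and 0.079 without 10-PFOS replicate 1). Sdsl, which breaks down serine, was also called lower in hCYP2B6-Tg males (adjusted p = 0.039 in edgeR), a call lost with the replicate block (0.053), with library totals (0.54) and without 0-PFOS replicates 1 or 3 (0.11 and 0.059) or 10-PFOS replicates 3 or 4 (0.12 and 0.10).

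Stress regulators downstream of ATF4 rose in 6, 5, 8 and 9 of 12 cases and fell in 0, 1, 0 and 1, the gene called lower being Cebpg in both hCYP2B6-Tg comparisons (in the males not with library totals as scaling, adjusted p = 0.89 in edgeR). Vldlr, a lipoprotein receptor known as an ATF4 target in liver, rose by 2.71 ± 0.27, 2.23 ± 0.27, 3.89 ± 0.36 and 3.97 ± 0.36 (largest adjusted p = 5.4e-07 in edgeR) and Gdf15, a stress hormone acting on appetite, by 2.49 ± 0.48, 2.09 ± 0.47, 2.66 ± 0.29 and 2.93 ± 0.29 (0.001). Atf3, a transcription factor induced with CHOP, rose in Cyp2b-null mice of both sexes and in transgenic males (2.52 ± 0.49, 3.19 ± 0.54 and 2.79 ± 0.54) and was at 0.41 ± 0.48 in hCYP2B6-Tg females (adjusted p = 0.5 in edgeR). Nupr1, a stress-induced chromatin protein that passed the filter on low counts in males only, rose by 1.96 ± 0.63 and 2.62 ± 0.64 (adjusted p = 0.014 and 0.0016 in edgeR).

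Upstream of ATF4, 7, 7, 7 and 9 of 14 listed genes rose and 1, 2, 0 and 1 fell. The list holds genes for eIF2, its kinases and its exchange factor, and also Impact, Dele1 and Oma1, which were among those that rose in every comparison. Impact, an inhibitor of the amino acid sensing kinase GCN2, rose by 1.20 ± 0.17, 1.41 ± 0.17, 1.40 ± 0.12 and 1.05 ± 0.12 (largest adjusted p = 5.6e-06 in edgeR), Eif2b3, a subunit of the exchange factor, by 1.05 ± 0.16, 1.31 ± 0.17, 0.95 ± 0.22 and 1.17 ± 0.22 (0.0011) and Eif2s1, the phosphorylated subunit of eIF2, by 0.71 ± 0.10, 0.68 ± 0.10, 0.87 ± 0.11 and 0.82 ± 0.11 (1.3e-05 in edgeR). Dele1, which carries a mitochondrial stress signal to the kinase HRI, rose by 0.42 ± 0.11, 0.58 ± 0.11, 0.54 ± 0.09 and 0.59 ± 0.09 (0.0034 in edgeR). The genes called lower were kinases: Eif2ak4 (GCN2) in both female comparisons, Eif2ak2 (PKR) in hCYP2B6-Tg females and Eif2ak1 (HRI) in hCYP2B6-Tg males. With library totals as scaling the last was at 0.0034 (adjusted p = 0.98 in edgeR), so that 11 of the list were higher and 0 lower in those males. The call of Eif2ak4 in Cyp2b-null females was lost without 0-PFOS replicate 2 (0.059), and that of Eif2ak2 with only the compared groups (0.061) and without 0-PFOS replicates 1 or 4 (0.074 and 0.051) or 10-PFOS replicates 1 or 2 (0.063 and 0.099 in edgeR). Eif2ak3 (PERK) was called higher in Cyp2b-null females and in both male comparisons. In the males its calls were lost with every gene in the fit (0.11 and 0.091), with only the compared groups (0.065 and 0.051), without Cyp2b-null replicates 1, 3 or 4 of 0-PFOS or 1 of 10-PFOS (0.051 to 0.18) and without hCYP2B6-Tg replicates 3 or 4 of 0-PFOS or any 1 of 10-PFOS (0.050 to 0.19 in edgeR).

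Of the chaperones and sensors of the ER most were not called or fell, with 1, 0, 1 and 1 of 19 higher and 3, 5, 6 and 11 lower, the females having 5 and 9 lower with library totals as scaling, and medians of -0.20, -0.19, -0.22 and -0.37. Of all genes, 2345 and 3230 of 13193 in females and 2726 and 3011 of 12594 in males were called lower. In females the share of the list called lower was near that of all genes. With library totals as scaling the males had 2 and 1 higher and 2 and 2 lower, with a median of 0.04 in Cyp2b-null males, so the direction in males depends on the scaling. Sdf2l1, an ER chaperone cofactor, changed by -1.74 ± 0.36, -2.06 ± 0.37, -1.92 ± 0.27 and -2.51 ± 0.27 (largest adjusted p = 0.0005 in edgeR) and Pdia6, a disulfide isomerase, by -0.81 ± 0.21, -0.89 ± 0.21, -0.70 ± 0.10 and -0.89 ± 0.10 (0.0038), both lower. Dnajb9, an ER cochaperone, was the 1 gene called higher, by 1.01 ± 0.16, 0.86 ± 0.16 and 0.86 ± 0.16 for Cyp2b-null females and the males of both genotypes.

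Chaperones and proteases of the mitochondrial matrix rose in 6 of 7 cases in each comparison, and Clpx, the subunit that unfolds substrates for Clpp, was called lower in all but hCYP2B6-Tg females. That call was lost in Cyp2b-null females without 0-PFOS replicates 1 or 3 or 10-PFOS replicates 1, 2 or 4 (adjusted p = 0.061 to 0.080 in edgeR), and in Cyp2b-null males with library totals (0.41) and without 0-PFOS replicates 2 or 3 or 10-PFOS replicates 1, 2 or 3 (0.051 to 0.15). Lonp1, a protease and known ATF4 target, rose by 1.23 ± 0.11, 1.45 ± 0.11, 1.20 ± 0.10 and 1.28 ± 0.10 (largest adjusted p = 1.4e-08 in edgeR), Hspd1 by 1.01 ± 0.10, 1.24 ± 0.10, 1.04 ± 0.08 and 1.15 ± 0.08 (6.8e-08), Hspa9 by 1.09 ± 0.10, 1.21 ± 0.10, 0.99 ± 0.07 and 1.00 ± 0.07 (1.2e-08) and Hspe1 by 0.89 ± 0.14, 0.97 ± 0.15, 0.76 ± 0.16 and 1.09 ± 0.16 (0.0004 in edgeR), all 3 chaperones of protein folding.

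Receptors for FGF21 and related hormones fell in 4, 4, 3 and 4 of 5 cases, with 2 and 3 in the males with library totals as scaling, and none rose. Fgfr1 was called in no comparison, at -0.34 ± 0.27, -0.50 ± 0.27, -0.05 ± 0.24 and -0.40 ± 0.24 (smallest adjusted p = 0.14 in edgeR). Fgfr4, the main FGF receptor of hepatocytes, changed by -0.95 ± 0.13, -0.99 ± 0.13, -1.09 ± 0.12 and -1.21 ± 0.12 (largest adjusted p = 3e-06 in edgeR) and Fgfr3 by -0.69 ± 0.16, -1.19 ± 0.17, -0.99 ± 0.16 and -0.92 ± 0.16 (0.002 in edgeR). Klb, the coreceptor that FGF21 needs, was at -0.40 ± 0.13, -0.66 ± 0.13, -0.20 ± 0.11 and -0.53 ± 0.11, the third of these not called (adjusted p = 0.16 in edgeR), the first lost without Cyp2b-null female replicate 4 of 0-PFOS or replicates 2 or 4 of 10-PFOS (0.065, 0.053 and 0.066), and the last lost with library totals as scaling (0.25). Fgfr2, another receptor, was at -0.50 ± 0.19, -1.26 ± 0.19, -0.71 ± 0.19 and -1.32 ± 0.19, and its call in Cyp2b-null females was lost without replicates 2, 3 or 4 of 0-PFOS (adjusted p = 0.11, 0.066 and 0.063 in edgeR) or 1, 2 or 3 of 10-PFOS (0.071, 0.055 and 0.10), and that in Cyp2b-null males with library totals (0.051). Targets of PPARα, to which Fgf21 also belongs, rose in 8, 9, 9 and 9 of 10 cases, with Ehhadh, an enzyme of peroxisomal fat oxidation, at 3.61 ± 0.21, 3.96 ± 0.22, 4.18 ± 0.13 and 4.10 ± 0.13 (largest adjusted p = 2.4e-11 in edgeR). At 1-PFOS 4, 6, 6 and 7 of the 10 were already called higher, and 0, 0, 0 and 1 lower (Pdk4, not called without 1-PFOS replicate 3, adjusted p = 0.061 in edgeR), a dose at which the Fgf21 values of both hCYP2B6-Tg groups lay below their controls.

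**Figure D4:**
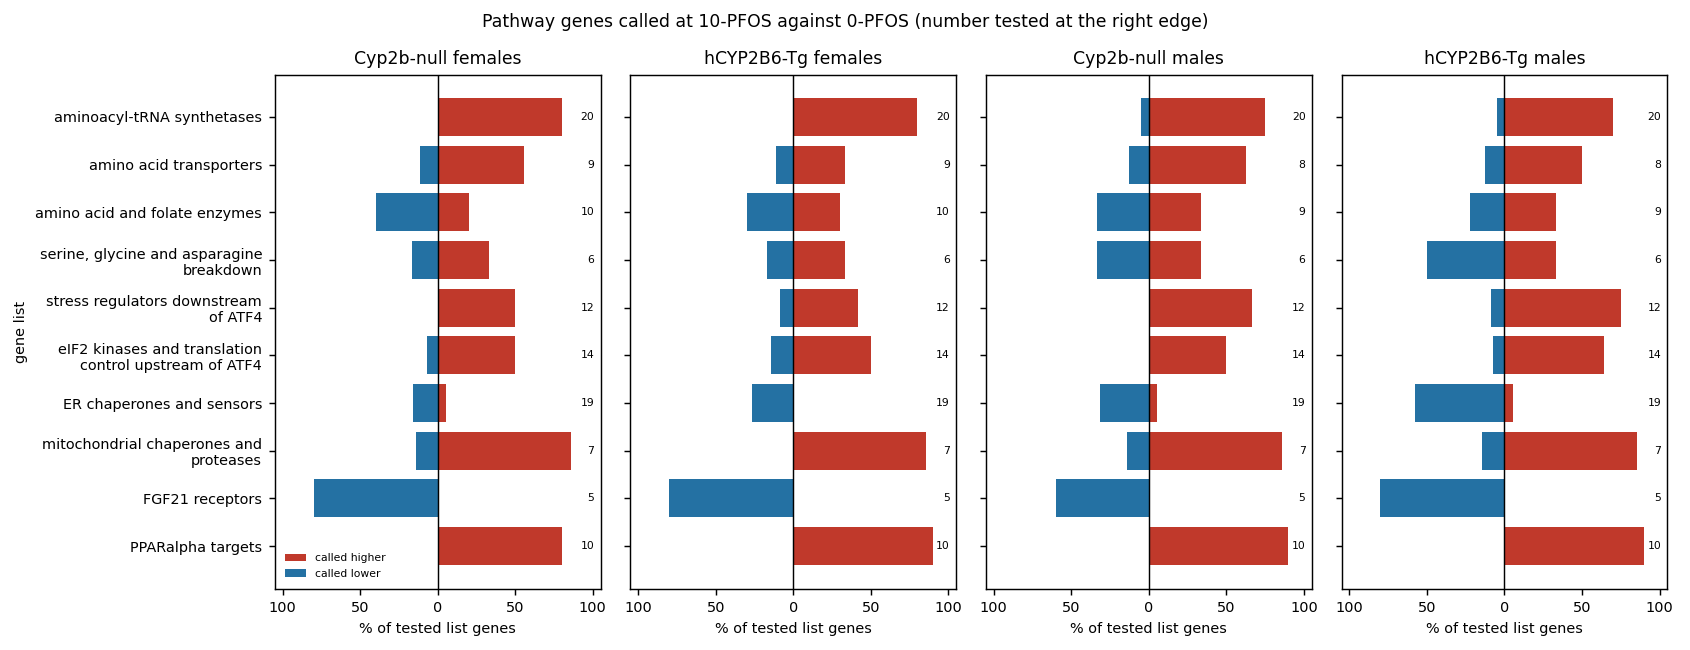
Share of the tested genes of each of 10 lists (rows, number tested at the right edge of each panel) that edgeR called higher (red, to the right) or lower (blue, to the left) at 10-PFOS against 0-PFOS, in percent, for the 4 combinations of sex and genotype. Synthetases and mitochondrial chaperones point right in all panels (16, 16, 15 and 14 of 20, and 6 of 7 in each), while FGF21 receptors point left, with Fgfr1 not called in any panel.

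The genes whose level followed the 9 members most closely over the 48 livers, by Pearson r with the mean of their standardised log2 CPM among 12507 genes, were Lmna (0.88), Ywhah (0.88), Sars (0.87), Derl1 (0.87) and Nars (0.86). The points share their dose groups, and r is a description. Lmna, a lamin of the nuclear envelope, was at 23.4 ± 1.41 CPM in untreated and 40.6 ± 4.64 CPM in 10-PFOS Cyp2b-null females, and at 25.5 ± 3.85 and 40.8 ± 2.22 CPM in the males of that genotype (SD, n = 4). Ywhah, a 14-3-3 protein, was at 25.5 ± 1.32 and 40.4 ± 3.81 CPM in those females and 27.3 ± 1.45 and 41.3 ± 0.355 CPM in those males. Sars and Nars are the synthetases for serine and asparagine, the amino acids that Psat1 and Asns serve, and Derl1 is a channel component of ER protein disposal. Derl1 was at 80.9 ± 2.22 and 118.7 ± 14 CPM in Cyp2b-null females untreated and at 10-PFOS.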

How the data were processed

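RNA of 48 mouse livers was sequenced by the authors as messenger RNA libraries with paired ends, and trimmed reads were aligned to GRCm39; the submitters' notes name FastQC, Trim Galore, RSEM, featureCounts and edgeR, whose versions the sources used here do not give. The deposited values are whole-number counts per gene, 1 table for females and 1 for males. In each of these, 25 rows broken across lines were left out (0.0432% and 0.0281% of counts), leaving 40847 genes. Of the counts above 0, 91.1% and 91.2% were even numbers, so that counting error is not that of single reads. The other deposited tables hold the authors' own fold changes and p-values for pairs of groups and were not used, nor were the 64 columns of per-sample values in them. Groups came from the sample labels. Nothing in the labels says whether mice of a group shared a litter or cage. The p-values weigh a difference against the spread between mice within groups, estimated over all groups of a fit.

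Genes over 1 CPM in at least 3 of the 4 libraries of a group were tested with edgeR 4.0.16 in R 4.3.3 (TMM normalisation, quasi-likelihood test), in 1 fit per sex (13193 and 12594 genes) and, for comparisons of the sexes, 1 fit of all 48 libraries (13271 genes). A gene was called at a Benjamini-Hochberg adjusted p below 0.05 over all genes tested. Printed CPM use library sizes over tested genes and TMM factors of the fit of all libraries. Alternatives were DESeq2 1.42.0, its size factors, every gene with a count, the compared groups only, the replicate number as a block, each mouse left out and, chosen after seeing the data, library totals without TMM. The steps were tested on simulated data. Pair correlations used 100000 permutations within groups (scipy 1.17.1). Promoters came from RefSeq, GRCm38.p6, and overlapping exons from an annotation of that build.

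The members, the gene lists and the marker lists were chosen with earlier results of these data known. All 10 members are named. From each of 10 lists up to 4 genes are named, those called in at least 1 comparison of 10-PFOS with 0-PFOS with the largest mean size of log2 fold change over the 4, beside genes that a count of 5 or fewer obliges, and the 5 genes most like the members. Lcn2 is named because a mouse stood apart in it.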

Additional observations from a re-analysis of the deposited data

Results flagged for a closer look

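In 8 of 120 sets of 4 mice, each a gene in a group, the highest or lowest mouse lay far from the other 3, and chance gives about 1 in 20. Asns was at 2.15 CPM in untreated hCYP2B6-Tg male replicate 2 against 0.226 to 0.444 CPM in the other 3, and at 1.09 CPM in Cyp2b-null male replicate 4 at 1-PFOS against 3.30 to 3.67 CPM. Psph was at 4.40 CPM in the same untreated hCYP2B6-Tg male, against 3.33 to 3.46 CPM. Trib3 was at 5.45 CPM in Cyp2b-null female replicate 2 at 1-PFOS against 13.4 to 13.8 CPM, and at 8.28 CPM in untreated Cyp2b-null male replicate 4 against 3.98 to 4.44 CPM. Mthfd2 was at 1.55 CPM in hCYP2B6-Tg female replicate 1 at 10-PFOS against 0.629 to 0.669 CPM. Chac1 was at 1.77 CPM in hCYP2B6-Tg male replicate 2 at 1-PFOS against 0.493 to 0.662 CPM, and Fgf21 at 0.809 CPM in Cyp2b-null male replicate 2 at 1-PFOS against 0.360 to 0.399 CPM.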

How the results depend on the processing

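Of 4424 recomputed changes of the pathway genes named by size, none that was called changed direction; of 1008 recomputed dose changes of the members, 6 moved beyond the spread between mice and 17 changed sign. Listed pathway genes called at 1-PFOS became 8 (from 4) in Cyp2b-null females and 19 (from 11) in Cyp2b-null males with DESeq2, 5 in hCYP2B6-Tg females (from 12) and 5 in Cyp2b-null males with only the compared groups in the fit, and 6 in the latter with library totals; the cause was not tested. At 10-PFOS these counts stayed within 1.5 times of 68, 68, 73 and 82. Of the 9 members, those called between genotypes in 10-PFOS females became 0 (from 1) with only the compared groups. Those called between untreated sexes became 2 (from 1) in Cyp2b-null mice with only the compared groups, with the replicate block and with library totals, and 2 (from 1) in hCYP2B6-Tg mice with library totals. Between the sexes at 10-PFOS in hCYP2B6-Tg mice they became 0 (from 1) with every gene, with only the compared groups and with library totals, and 1 (from 0) was called for the interaction of sex with 10-PFOS there with library totals.

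Leaving out 1 mouse at a time gave 3 to 4, 7 to 12, 8 to 14 and 27 to 30 pathway genes at 1-PFOS and 60 to 69, 63 to 68, 70 to 73 and 77 to 81 at 10-PFOS. For the members it gave 0 to 2 between genotypes in 10-PFOS females, 0 to 1 between the sexes in hCYP2B6-Tg mice untreated, at 10-PFOS and for their interaction, 1 between untreated Cyp2b-null sexes, and 0 in the other 9 comparisons.

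Replicate numbers did not pair the mice: deviations of mice with the same number had a median r of 0.018 in females and -0.0022 in males, and with the replicate block 67, 70, 73 and 80 pathway genes were called at 10-PFOS. Library totals moved the median log2 fold change of all genes at 10-PFOS to -0.09 and -0.17 in females and to 0.23 and 0.30 in males, with 4365 higher and 1191 lower calls in Cyp2b-null males (2828 and 2726 with TMM) and 5085 and 1107 in hCYP2B6-Tg males (3038 and 3011). In females they gave 1929 and 2625 in Cyp2b-null mice (2522 and 2345) and 2080 and 4110 in hCYP2B6-Tg mice (2945 and 3230). Depth limits Asns in untreated females and Phgdh in all mice, which rest on a few counts each. The lowest counts in any library were 4 for Psat1, 2 for Fgf21 and 6 for both Chac1 and Mthfd2. The lowest values of these genes, and folds that use them, rest on a few counts as well.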
